A study of Rattus norvegicus with 5 samples.

Results

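The densest 10% of autosomal 100 kb bins, called dense bins here, are the stretches of chromosomes 1 to 20 where low pileups of PARP1 ChIP-seq reads stood closest together in the central amygdala of rats. A pileup is a stretch of overlapping reads, and its height is the number of reads that overlap at its summit. In each bin, listed peaks of height 2 to 5 were counted by their start in the high preference pool, the low preference pool and saline replicate 2, and each count was divided by that library's autosomal total. Bins with at least 20 such peaks in each of these 3 libraries were eligible, and the 10% of eligible bins with the highest average share were the dense bins. Of 25590 autosomal bins 24791 were eligible, 799 fell under the minimum, and 2479 were dense, which is 247.9 Mb in all. Saline replicate 1 took no part in this choice. The counts of the other 3 libraries chose the bins, so their values there are given as a description.

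The animals were male Sprague Dawley rats, and each library pooled tissue of 2 rats, so the cocaine libraries are called the high and the low preference pool. Their rats received cocaine (15 mg/kg, intraperitoneal) on days that alternated with saline over 10 days of place conditioning, and were grouped by how strongly they then preferred the cocaine-paired compartment. Rats of both saline libraries received saline alone. At 24 h after the last injection all were tested for 15 min, and the tissue was taken directly afterwards, so that every group had gone through the test. There was 1 library for each cocaine group and 2 for saline, so differences between groups have no replicate check beyond the saline pair, and no test between groups was run.

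PARP1 is an abundant nuclear enzyme that binds DNA breaks and nucleosomes and builds chains of ADP-ribose on itself, histones and other proteins. It is known for its part in DNA repair and in loosening chromatin at active genes, and the central amygdala is known for its part in emotional and drug-cue memory. Immunoprecipitation with an antibody to PARP1 enriches DNA to which the protein was crosslinked, on top of a background of other DNA. Input DNA was not analysed here, so DNA bound by PARP1 and other DNA in the libraries cannot be told apart in any count below.

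The autosomal totals of peaks of height 2 to 5 were 3247863 in the high preference pool, 3914764 in the low preference pool, 763113 in saline replicate 1 and 3848964 in saline replicate 2. Saline replicate 1 was therefore the shallowest library, with 30.7 such peaks per eligible bin on average against 131, 158 and 155 in the high preference pool, the low preference pool and saline replicate 2. Intervals given below are exact, at 95%, and cover counting error only, since reads amplified by PCR are not independent molecules. Genes in the bins are not named, because the lists are on build rn4 and the gene table used here is on another build.

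Dense bins held more low pileups than the average bin in the 3 selecting libraries, by a larger factor in the cocaine libraries than in saline replicate 2. The number of peaks per dense bin ran from 133 to 440 with a median of 173 in the high preference pool, from 150 to 419 with a median of 209 in the low preference pool, and from 137 to 412 with a median of 192 in saline replicate 2. Relative density is the share of a library's autosomal peaks in a bin, divided by the mean of this share over eligible bins of that library, so that 1 is the average bin. Its mean over dense bins was 1.33 ± 0.129 (SD over 2479 bins) in the high preference pool, 1.34 ± 0.133 in the low preference pool and 1.245 ± 0.111 in saline replicate 2. Dense bins held 13.3%, 13.4% and 12.4% of the autosomal peaks of height 2 to 5 in the same order. The excess was modest and the edge of the set was smooth. The last bin inside lay on chromosome 9 at 108100000 to 108200000, with 158, 206 and 183 peaks in the high preference pool, the low preference pool and saline replicate 2. The first bin outside lay on chromosome 9 at 32600000 to 32700000, with 168, 198 and 179 peaks. In each of the 3 libraries the counts of these bins differed by less than their counting error.

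Saline replicate 1, which did not choose the bins, also held more low pileups in them. It had 12 to 218 peaks per dense bin with a median of 39, against a median of 30 in the other eligible bins. Its mean relative density there was 1.30 (exact binomial interval 1.29 to 1.31, with peaks taken as independent), with an SD of 0.336 over bins. This mean lay between those of saline replicate 2 and of the cocaine libraries. Single bins varied widely at this depth, and 314 dense bins (12.7%) had a relative density below 1 in saline replicate 1. Of the 2479 dense bins 730, or 29.4% (27.7 to 31.3), were also in the top 10% of saline replicate 1 by its own count, set at 44 peaks or more. Over all eligible bins 8.67% reached that count. All 4 libraries placed 191 eligible bins in their own top 10%, and all 191 were dense, but 3 of these libraries also chose the dense bins. Of 18762 eligible bins in the top 10% of none of them, 23 were dense.

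With eligible bins split into 10 equal classes by the average share that chose the dense bins, these classes formed a gradient in saline replicate 1 as well. Its mean relative density was 0.546 in the sparsest class, 1.01 in the fifth, 1.20 in the ninth and 1.30 in the dense bins. The peak lists also carry a running number with gaps, which is read here, from its values alone, as a count that includes pileups not listed. Counted by this number, dense bins of saline replicate 1 held 268 pileups on average against 215 in other eligible bins. The same counts were 527 against 424 in the high preference pool, 571 against 460 in the low preference pool and 551 against 459 in saline replicate 2. Relative to the mean eligible bin these were 1.21, 1.21, 1.22 and 1.18 in the high preference pool, the low preference pool, saline replicate 1 and saline replicate 2. The excess of dense bins was thus smaller when unlisted pileups were counted too. It was present in nearly every bin, with 97.98% of dense bins above the average in saline replicate 1, against 52.4% of the other eligible bins.

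**Figure D1:**
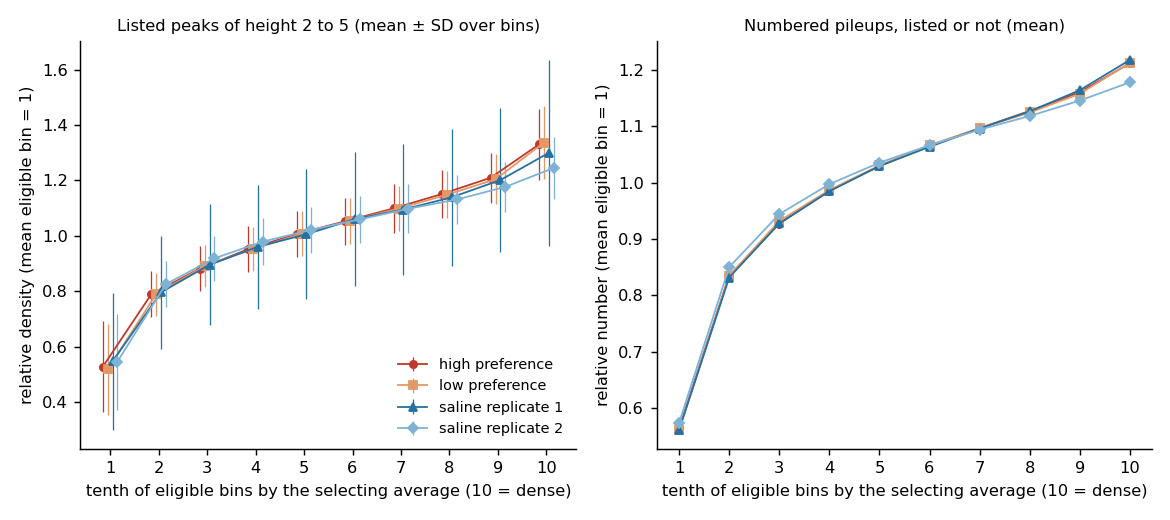
Mean relative density of listed peaks of height 2 to 5 (left, bars are the SD over bins) and mean relative number of numbered pileups (right) in 10 equal classes of the 24791 eligible bins, ordered by the average share in the 3 selecting libraries. All 4 libraries climb from the sparsest class to the dense bins (class 10), where saline replicate 2 is lowest at 1.245 on the left and 1.18 on the right.

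Pileups in dense bins were also slightly taller and longer. Heights of 3 to 5 made up 22.6% of the counted peaks in dense bins and 20.7% in other eligible bins of the high preference pool, 26.1% and 23.4% in the low preference pool, and 24.5% and 23.3% in saline replicate 2. In saline replicate 1 they made up 9.63% and 8.80%. The mean length of a listed peak in dense bins against other eligible bins was 87.5 against 86.4 bp in the high preference pool and 90.1 against 88.4 bp in the low preference pool. It was 81.2 against 80.9 bp in saline replicate 1 and 88.9 against 88.2 bp in saline replicate 2. Listed peaks covered 3.25% of the dense bins and 2.41% of the others in saline replicate 1, and 15.2% against 10.9%, 19.0% against 13.4% and 17.2% against 13.3% in the high preference pool, the low preference pool and saline replicate 2.

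Dense bins lay on all 20 autosomes, with a marked excess on chromosome 10. There 268 of 1084 eligible bins (24.7%) were dense, against 10.0% over all eligible bins. This chromosome held 10.8% of the dense bins and 4.37% of the eligible ones. Chromosome 19 followed with 88 of 578 (15.2%) and chromosome 7 with 185 of 1371 (13.5%). The lowest shares were on chromosome 2 with 110 of 2494 (4.41%), chromosome 20 with 29 of 535 (5.42%) and chromosome 15 with 65 of 1041 (6.24%). The median over chromosomes was 9.23%, and 8 of 20 chromosomes exceeded 10%.

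Saline replicate 1, read over all eligible bins of a chromosome, also had high means on chromosomes 10 and 19. Its mean relative density was 1.08 on each of chromosomes 19 and 10, the top 2 of 20, and 0.938 on chromosome 2, the lowest. On chromosome 10 the means of the high preference pool, the low preference pool and saline replicate 2 were 1.06, 1.09 and 1.04, so the chromosome as a whole was only a few percent above average. Chromosome 12 had the widest spread between the saline libraries, at 1.04 in saline replicate 1 and 0.942 in saline replicate 2, with the high and low preference libraries between them at 0.982 and 0.992.

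**Figure D2:**
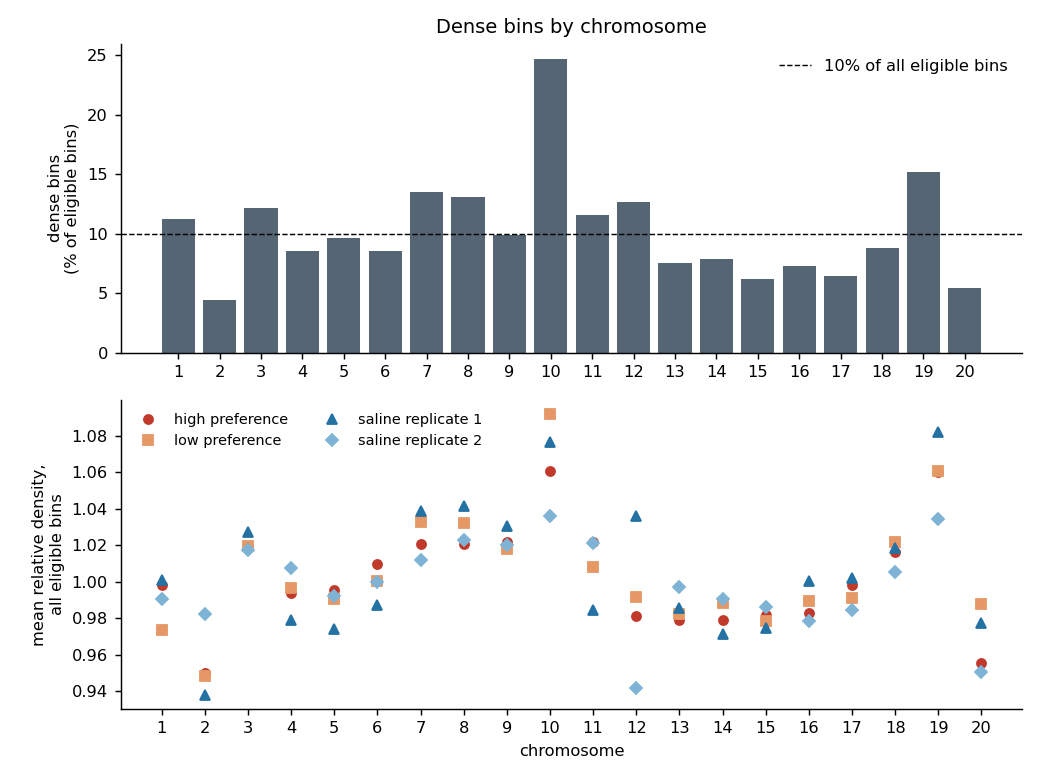
Percentage of eligible bins that were dense on each of chromosomes 1 to 20 (top; the dashed line marks 10%) and mean relative density over all eligible bins of the chromosome in each library (bottom). Chromosome 10 stands at 24.7% and chromosome 2 at 4.41%, and saline replicate 1 has its highest means on chromosomes 19 and 10.

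Along chromosomes, dense bins were unevenly placed at the 2 ends. Within 2 Mb of the last listed peak 63 of 391 eligible bins (16.1%) were dense, on 13 chromosomes, and within the first 2 Mb 22 of 372 (5.91%) on 9 chromosomes. Of those at the far end 13 were on chromosome 5, 12 on chromosome 10 and 9 on chromosome 3. Mean relative density at the first 2 Mb was 0.862 in the high preference pool, 0.828 in the low preference pool, 0.886 in saline replicate 1 and 0.874 in saline replicate 2. At the far end it was 1.01, 1.03, 1.01 and 1.00 in the same order. In the 10 Mb of chromosome 1 centred on 162 Mb, 16 of 98 eligible bins (16.3%) were dense, while the mean relative density of the 98 bins was below 1, at 0.970, 0.911, 0.960 and 0.975.

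Dense bins often adjoined each other. Of the 2479, 1390 (56.1%) had a dense neighbour, and 12.4% of the other eligible bins did. They formed 1557 runs, of which 1089 were single bins and 54 held at least 5 bins, on 13 chromosomes. Chromosome 10 carried 13 of these 54 runs. Runs of at least 10 bins numbered 9 and held 111 bins on 6 chromosomes. Neighbouring bins share their surroundings and were chosen by the same counts, so the runs are described only.

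The longest run spanned 20 bins (2.0 Mb) on chromosome 10 at 46400000 to 48400000. Mean relative density there was 1.34 in the high preference pool, 1.45 in the low preference pool, 1.36 in saline replicate 1 and 1.22 in saline replicate 2. Saline replicate 1 ranged from 0.813 to 2.18 and was above 1 in 19 of 20 bins, and the other libraries were above 1 in all 20. The low preference pool was the highest and saline replicate 2 the lowest on average.

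**Figure D3:**
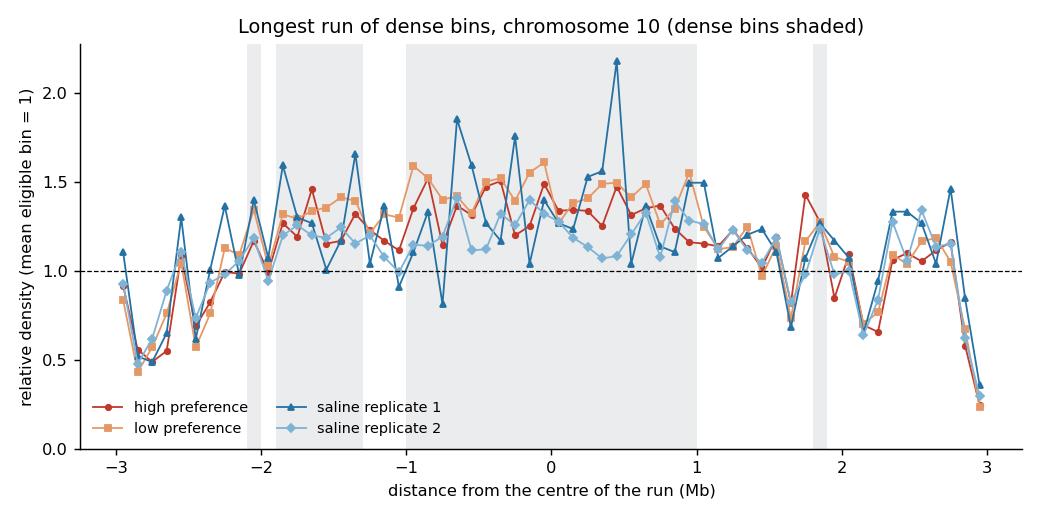
Relative density in 100 kb bins across the longest run of dense bins, on chromosome 10, and 2.0 Mb on either side, by distance from the centre of the run (dense bins shaded). Inside the run all 4 library means lie above 1, from 1.22 in saline replicate 2 to 1.45 in the low preference pool, with the widest scatter in saline replicate 1.

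The next run held 14 bins on chromosome 19 at 35100000 to 36500000, with means of 1.38, 1.37, 1.51 and 1.29 in the high preference pool, the low preference pool, saline replicate 1 and saline replicate 2. Another on chromosome 10 at 13600000 to 14900000 held 13 bins, with 1.36, 1.51, 1.44 and 1.29 in that order. Runs of 12 bins lay on chromosome 1 at 95200000 to 96400000 (1.41, 1.41, 1.49 and 1.21) and on chromosome 8 at 47100000 to 48300000 (1.31, 1.41, 1.36 and 1.22). In each of these 5 runs saline replicate 2 had the lowest mean, and the library that did not choose the bins stood above it. Pileups of height 6 or more were rare in them, with at most 3 per run in any library.

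Bins in longer runs were denser in saline replicate 1 than single bins. Its mean relative density was 1.26 in 1089 single bins, 1.30 in runs of 2, 1.34 in runs of 3 to 4 and 1.38 in 385 bins of runs of 5 or more. The share of these bins in its own top 10% was 23.0%, 27.5%, 34.7% and 44.2%. The low preference pool showed the same order, from 1.30 to 1.41. Saline replicate 2 did not, with 1.249, 1.240, 1.241 and 1.245. The high preference pool had 1.31, 1.33, 1.36 and 1.35. Values of the 3 selecting libraries are descriptions.

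The broader clusters can be seen in fixed windows of 5 Mb, chosen after their values were seen. Of 511 windows with at least 25 eligible bins, 110 held no dense bin and 20 held at least 20. The fullest was on chromosome 1 at 205000000 to 210000000, where 38 of 49 eligible bins were dense. Mean relative density over all 49 bins was 1.29 in the high preference pool, 1.33 in the low preference pool, 1.37 in saline replicate 1 and 1.19 in saline replicate 2. Next came a window on chromosome 14 at 80000000 to 85000000 with 36 of 50, and with 1.29, 1.33, 1.35 and 1.16. In both windows saline replicate 2 had the lowest mean.

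The densest bins of all were a few sharp blocks rather than parts of long runs. The densest was on chromosome 17 at 53500000 to 53600000, with 440 peaks in the high preference pool, 419 in the low preference pool, 218 in saline replicate 1 and 412 in saline replicate 2. Relative density was 3.36, 2.66, 7.09 and 2.66 in that order, with the highest value in the library that did not choose the bin. Listed peaks covered 56.6%, 61.2%, 19.9% and 63.6% of this bin, so coverage there was far higher in the 3 deeper libraries, and its part in their lower relative density was not tested. The bin beside it, at 53600000 to 53700000, was the second densest, with 384, 359, 198 and 362 peaks and relative densities of 2.94, 2.28, 6.44 and 2.34. The 4 dense bins from 53400000 to 53800000 averaged 2.59, 2.01, 5.03 and 2.09, and the 10 eligible bins within 0.5 Mb on either side averaged 0.958, 0.982, 0.973 and 0.953. By numbered pileups the block stood at only 1.27, 1.18, 2.00 and 1.17 times the average bin. It held 61, 84, 0 and 99 pileups of height 6 or more, the tallest of 8, 8, 5 and 10 reads, so that in saline replicate 1 the excess was all of heights 2 to 5.

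A bin on chromosome 14 at 21900000 to 22000000, the fourth densest, had a like pattern. It held 271, 287, 133 and 291 peaks in the high preference pool, the low preference pool, saline replicate 1 and saline replicate 2, or relative densities of 2.07, 1.82, 4.33 and 1.88. It also held 25, 29, 0 and 23 pileups of height 6 or more. A bin on chromosome 1 at 104500000 to 104600000, the third densest, had 276, 283, 87 and 291 peaks, with relative densities of 2.11, 1.79, 2.83 and 1.88 and at most 1 pileup of that height in any library. The fifth densest differed between libraries and is described with those differences below. Listed peaks covered 40.3%, 42.6%, 11.3% and 41.6% of the bin on chromosome 14, again with the lowest coverage in saline replicate 1.

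In the 3 deeper libraries, pileups of height 6 or more were somewhat more frequent in dense bins than over all eligible bins. The choice did not use these heights. The sparsest class of eligible bins held still more of them. It held 479, 588, 123 and 677 in the high preference pool, the low preference pool, saline replicate 1 and saline replicate 2. Dense bins held 329, 581, 9 and 520 in that order. Of the bins in the sparsest class, 6.94%, 9.15%, 1.49% and 9.84% had at least 1. At least 1 was found in 195 dense bins (7.87%) of the high preference pool, 360 (14.5%) of the low preference pool and 303 (12.2%) of saline replicate 2, against 5.11%, 9.29% and 9.07% of all eligible bins. Dense bins held 329 of 2042, 581 of 3364 and 520 of 3427 such pileups of the eligible bins, which is 16.1% (14.5 to 17.8), 17.3% (16.0 to 18.6) and 15.2% (13.99 to 16.4). These intervals take pileups as independent, but up to 27, 36 and 39 stood in a single dense bin, so the intervals are too narrow. In saline replicate 1 dense bins held only 9 of 293, or 3.07% (1.41 to 5.75), and 8 dense bins (0.323%) had one against 0.484% of eligible bins. The 293 stood in 120 eligible bins. Heights are not scaled to depth, so a height of 6 is a stricter limit in this shallow library than in the others. Without the blocks of chromosomes 17 and 14, chosen after their values were seen, the shares of the 3 deeper libraries were 12.2%, 14.2% and 11.9%. With bins chosen by heights 3 to 5 the shares were 28.0%, 27.0%, 28.8% and 26.2% in the high preference pool, the low preference pool, saline replicate 1 and saline replicate 2. By height 2 only, saline replicate 1 held 3.70%, so its low share was seen with both choices of 100 kb bins that include height 2. With bins of 50 kb chosen by heights 2 to 5 it held 8.446%, near the 9.998% of eligible bins that were dense. The tallest pileup in any dense bin had 612 reads in saline replicate 2, 483 in the low and 479 in the high preference pool, and 206 in saline replicate 1.

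Between the libraries, dense bins were denser relative to the average bin in the cocaine libraries and in saline replicate 1 than in saline replicate 2. Saline replicate 2 was flatter over all eligible bins, so this was not particular to dense bins. Its SD of relative density over eligible bins was 0.216. The SD was 0.240, 0.241 and 0.322 in the high preference pool, the low preference pool and saline replicate 1. In the second sparsest class saline replicate 2 stood at 0.825, above 0.789 in either cocaine library. The median density ratio over dense bins was 0.994 for high over low preference, 1.06 for high preference over saline replicate 2 and 1.07 for low preference over saline replicate 2. It was 1.03 for saline replicate 1 over saline replicate 2, and over all eligible bins these medians were 1.00, 0.998, 0.995 and 0.990. The low preference pool and saline replicate 2 were of nearly equal depth. On chromosomes, the ratio of mean densities of dense bins was above 1 on all 20 for either cocaine library over saline replicate 2 and on 15 for saline replicate 1 over saline replicate 2. Libraries that chose the bins enter each of these ratios, and chromosomes are not replicates, so these counts are descriptions only. High over low preference ran from 0.956 on chromosome 10 to 1.04 on chromosome 17.

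These medians and chromosome counts lean on which libraries chose the bins, so the libraries were also read in bins they had not chosen. In the 2479 bins with the most peaks in saline replicate 1 alone, the mean relative density was 1.20 in the high preference pool, 1.20 in the low preference pool and 1.15 in saline replicate 2. Those bins shared 812 with the dense bins. In bins chosen by the other 2 of the 3 deeper libraries, the high preference pool stood at 1.27, the low preference pool at 1.27 and saline replicate 2 at 1.20. Saline replicate 1, read in the dense bins, stood at 1.30. These 4 values come from different sets of bins, so no order of the libraries is read from them. These readings were added after the data were seen.

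**Figure D4:**
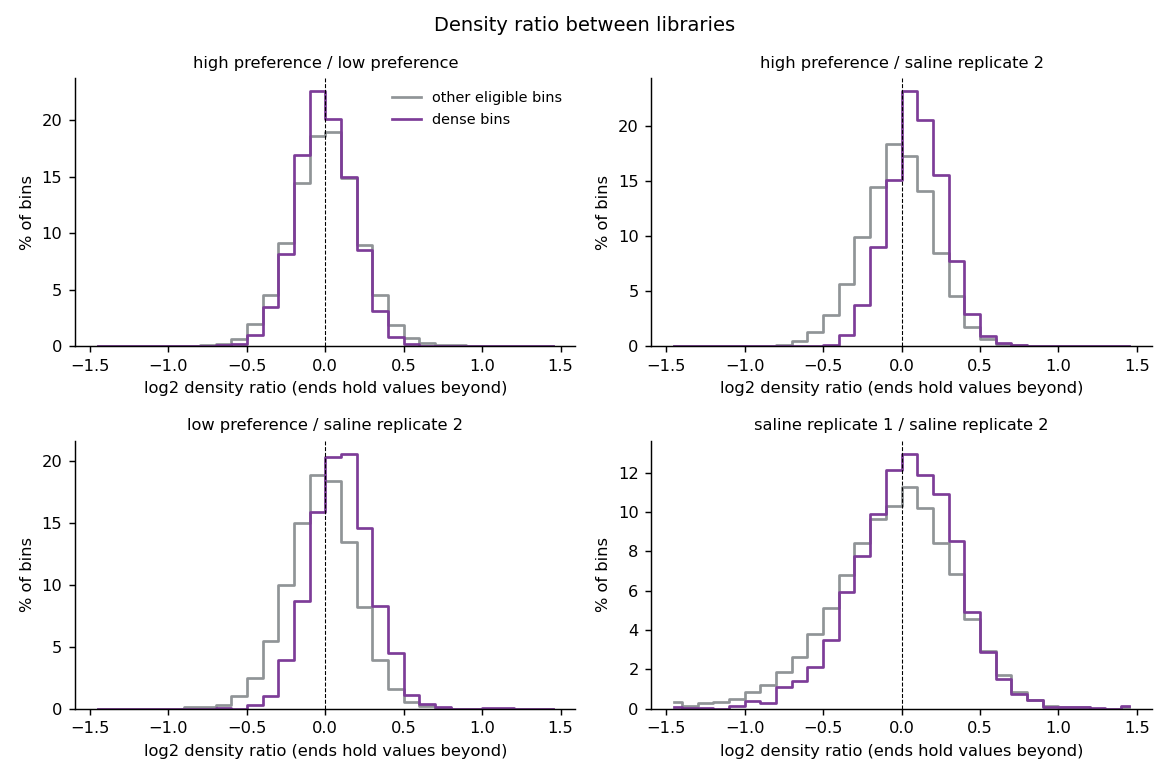
Distribution of the log2 density ratio between libraries over 2479 dense bins and 22312 other eligible bins, in steps of 0.1. Dense bins centre near 0 for high over low preference and to the right of the other bins for the 3 ratios to saline replicate 2, with medians of 1.06, 1.07 and 1.03 before the log.

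Single dense bins rarely differed much between the high and low preference libraries. One library was called denser than another in a bin when its density was at least 25% higher. This was found in 75 dense bins (3.03%) for high over low preference, and in 5.96% of all eligible bins. For low over high preference it was found in 91 (3.67%), and in 5.75% of eligible bins. For high preference over saline replicate 2 the count was 248 (10.0%) against 6.4% of eligible bins, with 22 (0.887%) against 8.01% the other way. For low preference over saline replicate 2 it was 294 (11.9%) against 5.84%, with 23 (0.928%) against 7.36% the other way. The rule used these libraries, and the counts turn with it. When the high preference pool was left out of the choice, 4.52% of bins were higher in it than in saline replicate 2 and 5.69% lower, and 1.01% were higher and 8.43% lower than in low preference. When the low preference pool was left out, 5.45% were higher in it than in saline replicate 2 and 5.24% lower. When saline replicate 2 was left out, 17.1% and 18.2% were higher in the high and the low preference pool, and 0.121% lower in either. Nothing about the groups is read from these counts.

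The saline libraries differed from each other in more bins. In 422 dense bins (17.02%) saline replicate 1 was at least 25% denser than saline replicate 2, against 16.3% of eligible bins, and in 334 (13.5%) the reverse held, against 21.6%. Counting error alone gave an SD of 0.256 on the log2 scale for this ratio in dense bins, and the observed SD was 0.330. For high over low preference the observed SD was 0.177 and the counting SD 0.148. In both comparisons the counting SD, which takes peaks as independent, was below the observed SD. What made up the spread of single dense bins was not tested.

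Both cocaine libraries were above both saline libraries in 765 dense bins (30.9%), against 16.5% of eligible bins, and below both in 164 (6.62%), against 16.4%. The cocaine libraries helped to choose the bins and saline replicate 1 did not, so nothing about the groups is read from these counts either. When the high or the low preference pool was left out of the choice, the share below both saline libraries was 10.6% or 10.2%, and without saline replicate 2 it was 1.82%. When saline replicate 1 was left out of the comparison, both cocaine libraries were above saline replicate 2 in 55.7% of dense bins, against 33.1% of eligible bins, and below it in 14.5%, against 34.9%. Saline replicate 2 was the lowest of the 4 libraries in 898 dense bins (36.2%), against 21.8% of eligible bins, and saline replicate 1 in 914 (36.9%), against 37.3%.

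A pair of bins on chromosome 7 stood out among the dense bins for its differences between libraries. At 105600000 to 105700000, the fifth densest bin, there were 237 peaks in the high preference pool, 415 in the low preference pool, 69 in saline replicate 1 and 186 in saline replicate 2. Relative density was 1.81, 2.63, 2.24 and 1.20, so the low preference pool and saline replicate 1 were high, the high preference pool was between, and saline replicate 2 was near the average bin. Low preference over saline replicate 2 was 2.19 (exact conditional binomial interval 1.84 to 2.62) and high over low preference was 0.688 (0.584 to 0.809). The next bin, at 105700000 to 105800000, held 183, 341, 74 and 164 peaks, with relative densities of 1.40, 2.16, 2.41 and 1.06. There low preference over saline replicate 2 was 2.04 (1.69 to 2.48) and high over low preference 0.647 (0.538 to 0.776). These ratios and those named below are extremes among the dense bins, so their intervals, made for single bins, are too narrow. The 10 eligible bins within 0.5 Mb on either side averaged 0.895, 0.961, 1.12 and 0.926. By numbered pileups the pair stood at 1.27, 1.501, 1.63 and 1.13, in the same order of libraries. The saline libraries lay on either side of the high preference pool in both bins.

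**Figure D5:**
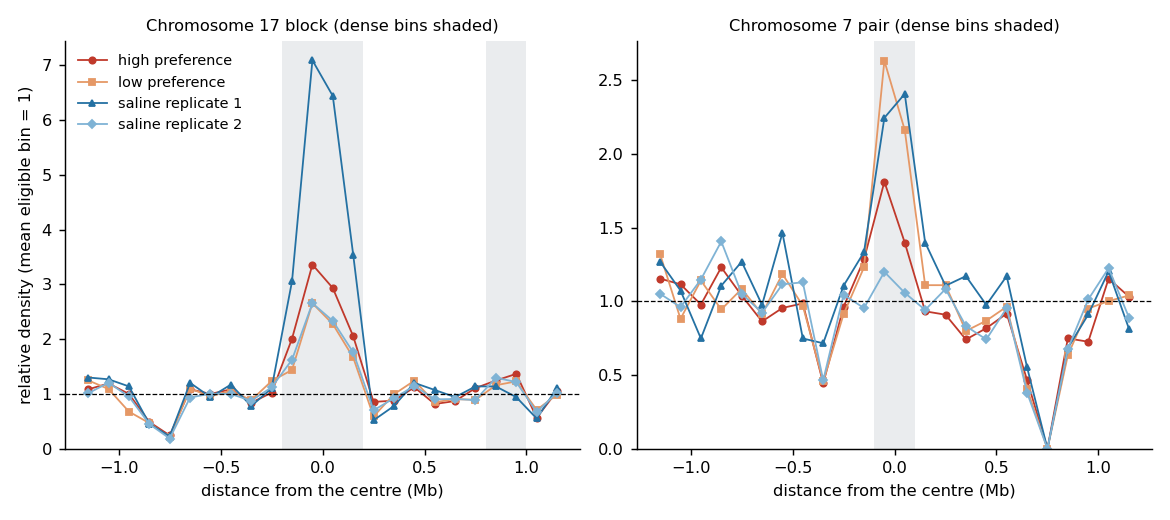
Relative density in 100 kb bins by distance from the centre of the chromosome 17 block (left) and the chromosome 7 pair (right), with dense bins shaded. On the left saline replicate 1 reaches 7.09 where the other libraries reach 2.66 to 3.36. On the right the low preference pool and saline replicate 1 reach 2.63 and 2.41. Saline replicate 2 stands at 1.20 and 1.06 in the pair, and is highest outside it, at 1.41.

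A bin on chromosome 3 at 138100000 to 138200000 separated saline replicate 2 from the 3 other libraries. Its relative density was 1.90 in the high preference pool (249 peaks), 1.81 in the low preference pool (285 peaks), 3.06 in saline replicate 1 (94 peaks) and 1.08 in saline replicate 2. High preference over saline replicate 2 was 1.77 (1.45 to 2.16), the highest such ratio among dense bins. By numbered pileups the high preference pool stood at 1.32 and saline replicate 1 at 1.72 in this bin, and saline replicate 2 at 1.03. Saline replicate 1 over saline replicate 2 was 2.84 (2.18 to 3.68), at very unequal depth. The next highest ratios of high preference to saline replicate 2 were on chromosome 6 at 108300000 to 108400000, with 215, 220, 35 and 154 peaks and a ratio of 1.65 (1.34 to 2.05), and on chromosome 9 at 88600000 to 88700000, with 220, 222, 43 and 158 peaks and a ratio of 1.65 (1.34 to 2.04). In both the low preference pool was also above saline replicate 2. For low preference over saline replicate 2 the bin after the chromosome 7 pair was on chromosome 10 at 75700000 to 75800000, with 196, 264, 46 and 154 peaks and a ratio of 1.69 (1.38 to 2.07).

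Dense bins in which the high preference pool exceeded the low preference pool were less extreme. The highest ratio was on chromosome 9 at 91000000 to 91100000, with 206, 163, 45 and 197 peaks in the high preference pool, the low preference pool, saline replicate 1 and saline replicate 2 and a ratio of 1.52 (1.23 to 1.88). It was followed by chromosome 4 at 167200000 to 167300000, with relative densities of 1.47, 0.996, 1.27 and 1.37 (ratio 1.47, 1.19 to 1.83), and chromosome 6 at 140700000 to 140800000, with 197, 166, 24 and 214 peaks (1.43, 1.16 to 1.77). In the opposite direction a bin on chromosome 9 at 90700000 to 90800000, only 0.2 Mb from the highest one, had 134, 248, 39 and 195 peaks and a ratio of 0.651 (0.524 to 0.807). Each of these is the extreme of 2479 ratios, so its interval, made for 1 bin, is too narrow. By numbered pileups the ratio of the first bin was 1.05 and that of the last 0.897, both nearer to 1.

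Saline replicate 2 exceeded a cocaine library most on chromosome 19 at 2100000 to 2200000 (139, 204, 40 and 239 peaks) against high preference, with a ratio of high preference to saline replicate 2 of 0.689 (0.555 to 0.853). Against low preference it did so on chromosome 10 at 30300000 to 30400000 (174, 150, 42 and 226 peaks), with a ratio of 0.653 (0.527 to 0.806). Further bins of the first kind were on chromosome 4 at 59100000 to 59200000 (133, 213, 29 and 213 peaks) and chromosome 2 at 232700000 to 232800000 (137, 198, 51 and 218 peaks). Those of the second kind were on chromosome 6 at 139200000 to 139300000 (184, 183, 57 and 253 peaks) and at 32900000 to 33000000 (152, 168, 39 and 232 peaks). In all 6 of these bins the cocaine library that was not compared lay closer to saline replicate 2 in relative density than the one that was. The bins were picked for a low ratio of the compared library, so this is a description only.

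Saline replicate 1 was highest against saline replicate 2 on chromosome 1 at 243600000 to 243700000, with 190, 205, 113 and 195 peaks in the high preference pool, the low preference pool, saline replicate 1 and saline replicate 2 and a ratio of saline replicate 1 to saline replicate 2 of 2.92 (2.30 to 3.70). This bin was below the average in numbered pileups in the 3 deeper libraries, at 0.874, 0.856 and 0.853, and stood at 1.42 in saline replicate 1. It held 7, 13, 0 and 31 pileups of height 6 or more. Saline replicate 1 was lowest against saline replicate 2 on chromosome 12 at 15000000 to 15100000, with 202, 186, 12 and 197 peaks and a ratio of 0.307 (0.156 to 0.549). It was next lowest on chromosome 15 at 84100000 to 84200000 (175, 176, 15 and 205 peaks) and chromosome 11 at 26500000 to 26600000 (195, 184, 17 and 214 peaks). In these bins the 3 selecting libraries were all above their average bin and saline replicate 1 was below its own. The bins were picked for a low ratio of saline replicate 1 to saline replicate 2, so this is a description only.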

How the data were processed

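The authors deposited 1 peak list for each library. It held 3369979 peaks for high preference, 4037021 for low preference, 793020 for saline replicate 1 and 3973830 for saline replicate 2. Each sample's group label gave its group. Per the submitters' processing notes, Bowtie 0.12.7, Picard 1.37 and build rn4 were used. The step at which each tool was run, and any peak caller, are not named in the labels. The first 5 columns are, per the file headers, a running number, chromosome, start, end and summit. The deposited column 6 was read from its values as a signal, the pileup height in reads, not scaled to depth, and no autosomal height was under 2. Column 7 was not used. Whether positions count from 0 or 1 is not stated, and bin edges are multiples of 100 kb of the deposited starts.

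Python 3.11.15 with numpy 2.4.6, pandas 2.3.3 and scipy 1.17.1 was used. Peaks were binned by start into 100 kb bins, and density was the count divided by the library's autosomal total. Numbered pileups per bin were read from the running number at the bin edges, on a straight line between listed peaks. Where a library's own top 10% is given, it is the bins at or above the smallest count that leaves at most 10% of eligible bins. Libraries were compared by a fixed difference in density of 25% and not by a test, since 1 library per cocaine group allows none. Named bins were the 5 densest, the 5 longest runs, the bins at the threshold and, for each pair of libraries compared, the 3 highest and 3 lowest ratios. The scripts were tested on simulated data. The alternatives were bin width and offset, the heights and libraries that choose bins, the minimum, the share kept, the ratio and the scaling. The bins and measures were chosen with earlier results of these data known. Sequences of the bins are not shown, since no genome of build rn4 was used here.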

Additional observations from a re-analysis of the deposited data

How the results depend on the processing

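Of 210 values of 16 results under 16 other settings, 141 stayed near the reported value and 69 moved, and the cause of the moves was not tested. Saline replicate 1 is shallow, which limits single bins, and 1 library per cocaine group allows no test. No paired analysis was possible because the labels give the groups no shared replicate numbers. A share was counted as moved only when it changed by a large factor. The setting without the blocks on chromosomes 17 and 14, chosen after seeing the data, thus counted 0 of 4 values as moved. Yet the share of pileups of height 6 or more fell from 16.1% to 12.2% for high preference and from 17.3% to 14.2% for low preference. For saline replicate 2 it fell from 15.2% to 11.9%. Dense bins were 9.978% of eligible bins in that setting. Scaling by the median eligible bin moved 0 of 10.

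The mean relative density of dense bins in saline replicate 1, reported as 1.30, was 1.275 with bins chosen by height 2 only, 1.285 by heights 3 to 5, 1.282 with a minimum of 50 peaks, 1.36 for the top 5% and 1.251 for the top 20%. The share of pileups of height 6 or more in dense bins was 8.446% in saline replicate 1 with bins of 50 kb, where 9.998% of eligible bins were dense. For the top 20%, which hold 20% of eligible bins, it was 26.79% for high preference, 27.47% for low preference, 7.509% for saline replicate 1 and 24.37% for saline replicate 2, and by heights 3 to 5 it was 27.99%, 26.95%, 28.85% and 26.18%.

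The shares of dense bins in which a library was at least 25% denser than another moved most, and over all eligible bins they moved too. High over low preference held in 12.4% of eligible bins of 50 kb and 2.17% of those of 200 kb, and low over high in 12.6% and 1.71%. In dense bins, for high over low preference the share was 9.19% with bins of 50 kb and 1.354% with 200 kb, for low over high preference 7.614% and 0.5573%, and for high preference over saline replicate 2 16.35% and 5.971%. For saline replicate 2 it was 4.81% and 0.1592% over high preference, 5.362% and 0.3185% over low preference, and 24.81% and 4.697% over saline replicate 1. Over all eligible bins, high preference over saline replicate 2 held in 12.6% with bins of 50 kb and 2.52% with 200 kb. For saline replicate 2 these shares were 14.3% and 3.58% over high preference, 13.1% and 3.68% over low preference, and 29.0% and 14.4% over saline replicate 1. Saline replicate 2 over high preference gave 1.412% with bins shifted by 50 kb, 1.418% by height 2 only, 1.379% by heights 3 to 5 and 1.916% for the top 20%. Over low preference it gave 1.856% shifted, 1.826% by heights 3 to 5 and 2.138% for the top 20%. Over all eligible bins the shares over high preference were 7.852%, 7.954%, 7.899% and 8.007% in the same order of settings. Those over low preference were 7.404%, 7.245% and 7.362%.

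With a difference of at least 50% the shares were 0.04034% for high over low preference, 0.08068% for low over high, 0.5647% for high preference over saline replicate 2 and 0% the other way. They were 0.6454% for low preference over saline replicate 2 and 0.04034% the other way, and 3.55% for saline replicate 1 over saline replicate 2 and 3.832% the other way. Over all eligible bins these 8 shares were 0.5163%, 0.3267%, 0.4639%, 0.7019%, 0.4074%, 0.6656%, 3.739% and 8.16% in that order. By numbered pileups, at the difference of at least 25%, the 8 shares were 0.04034%, 0%, 0.04034%, 0%, 0.121%, 0%, 1.533% and 0.5647% in that order. Over all eligible bins these were 0.1694%, 0.1331%, 0.1775%, 0.3227%, 0.07664%, 0.2824%, 1.17% and 2.61%.

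With 1 library at a time left out, the mean in saline replicate 1 ran from 1.283 to 1.30. High over low preference ran from 1.008% to 8.39%, low over high from 1.008% to 8.431%, high preference over saline replicate 2 from 4.518% to 17.06% and the reverse from 0.121% to 5.688%. Low preference over saline replicate 2 ran from 5.446% to 18.23% and the reverse from 0.121% to 5.244%. Over all eligible bins these shares were 5.96%, 5.75%, 6.4%, 8.01%, 5.84% and 7.36% in that order. Both cocaine libraries were above both saline libraries in 22.87% to 55.67% of bins and below both in 1.815% to 14.52%, where the highest value of each is without saline replicate 1. The shares of eligible bins were 33.1% and 34.89% in that setting and 16.55% and 16.36% in the others that leave out a library.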
